A study of Mus musculus with 8 samples.

Results

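The circadian clock core genes were followed in group 3 innate lymphoid cells (ILC3s) of the mouse large intestine with and without the transcription factor Zbtb46. The set held 10 genes of the 27179 rows of the deposited count table: Arntl (also called Bmal1), Clock, Npas2, Per1, Per2, Per3, Cry1, Cry2, Nr1d1 and Nr1d2. All 10 were found by symbol. They were chosen by name, with earlier results of these data known. Of them 9, all but Per3, passed the expression filter that 8878 genes passed. ILC3s bearing the chemokine receptor CCR6 and the interleukin 7 receptor were sorted by flow cytometry from C57BL/6 mice at steady state, and each of the 8 libraries came from its own mouse. The 4 Zbtb46-sufficient mice (replicates 1 to 4, labelled wild type) were Zbtb46f/f, with both copies floxed and intact. The 4 Zbtb46-deficient mice (replicates 5 to 8, labelled Zbtb46 KO) were Zbtb46f/f and also carried a Cre that is active in the ILC3 lineage and not in ILC3s alone. The sample labels give the genotype of the first group as WT. As described, only the deficient mice carried Cre, and effects of Cre and of the deletion cannot be told apart. The sources used here do not state age or the time of day at which tissue was taken.

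The mammalian clock is a transcriptional feedback loop. ARNTL pairs with CLOCK or NPAS2 and activates genes through E-box sequences, among them the Per and Cry genes, whose products enter the nucleus and block the activators. A second loop runs through Nr1d1 and Nr1d2, which encode the nuclear receptors REV-ERBα and REV-ERBβ. They repress Arntl, Npas2, Clock and Cry1 through the same elements that ROR receptors activate. In tissues with a running clock, Arntl and its companions therefore peak at a time of day when Per and Nr1d transcripts are low. Gut ILC3s are known to carry a clock that shapes their cytokine output.

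The proximal promoters show which of these elements lay next to the start sites of the members. RefSeq promoter windows of GRCm38.p6, each of 250 bases before and 50 after a start site, were matched for 9 members, as 13 windows. They were searched on both strands for the E-box CACGTG, the D-box TTATGTAA or TTACGTAA, the core of the ROR and REV-ERB element TAGGTCA, and the cyclic AMP element TGACGTCA. These motifs do not overlap in the members' windows. E-boxes were found in Per1 and Cry1, D-boxes in Per3 and a ROR element core in Arntl, and these stretches are shown with the motif in capitals because they are the only matches among the members.

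Per1, chr11:69098758-69098813, + strand, bases -191 to -136, counted from the start site as 0: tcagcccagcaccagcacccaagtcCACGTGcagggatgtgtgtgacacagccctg
Cry1, chr10:85185084-85185139, - strand, bases -85 to -30: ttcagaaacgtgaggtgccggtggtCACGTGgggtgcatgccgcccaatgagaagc
Per3, chr4:151044791-151044895, - strand, bases -230 to -126: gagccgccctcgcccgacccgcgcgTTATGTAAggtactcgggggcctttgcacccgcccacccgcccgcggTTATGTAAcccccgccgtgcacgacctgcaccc
Arntl, chr7:113207530-113207558, + strand, bases 19 to 47: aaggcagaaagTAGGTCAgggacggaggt

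Across all 27025 genes of the promoter table, an E-box stood in a window of 8.09%, a D-box in 1.23%, a ROR element core in 2.97% and a cyclic AMP element in 2.03%. No member window held the cyclic AMP element. A match is a description of letters near the start site, and binding was not measured.

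Library totals ran from 25328231 to 33760743 counts, so that a count of 0 allows 0.0889 to 0.118 CPM (reads relative to library size, here scaled by TMM factors; the limit is 3 counts of the total and covers counting error only). Zbtb46 was at 8.02, 48.8, 88.9 and 26.6 CPM in the sufficient and 4.82, 0.532, 3.19 and 0.125 CPM in the deficient libraries, in the direction of the labels. Its log2 fold was -4.31 (standard error, SE, 1.42), with an adjusted p of 0.885 in edgeR and 0.0115 in DESeq2. The 10 ILC3 markers summed to 23398 to 36557 CPM, of which Il22 alone made 13570 to 25512 CPM. Markers of T cells summed to 57.9 to 144 CPM in sufficient and 29.2 to 132 CPM in deficient libraries, with Cd8a at 0, and those of NK cells and ILC1s to 37.5 to 248 and 184 to 598 CPM, with Prf1 at 0. Of the NK cell and ILC1 markers, Ncr1 alone ranged over 0.0391 to 198 and 148 to 447 CPM. Dendritic cell markers summed to 42.2 to 139 and 108 to 178 CPM, mostly of Batf3, Ccl17 and Irf8. The dendritic cell markers Flt3, Itgax and Clec9a stayed at or below 0.219, 0.188 and 0.380 CPM. B and plasma cell markers summed to 5.86 to 136 and 2.00 to 74.4 CPM, and ILC2 markers to 0.943 to 52.0 and 0.438 to 28.2 CPM. Macrophage and neutrophil markers summed to 0.993 to 43.9 and 5.26 to 731 CPM, with 335 and 731 CPM, mostly of S100a8 and S100a9, in deficient replicates 5 and 7. Epithelial markers summed to 1.51 to 1353 and 0.782 to 28.6 CPM, highest in sufficient replicate 2. Stromal and endothelial markers summed to 51.8 to 772 and 14.0 to 417 CPM, highest in sufficient replicate 1, with Cdh5 at 0. Mast cell markers summed to 0 to 3.23 and 0 to 66.2 CPM, highest in deficient replicate 6, with Mcpt2 and Tpsb2 at 0, and erythroid ones to at most 0.157 CPM. Sufficient replicate 1 and deficient replicate 6 had the most tested genes at 3 counts or fewer, 15.9% and 15.6%, against 5.45% to 11.5% in the other 6 libraries. In such bulk libraries, fewer cells with a transcript and less of it per cell cannot be told apart.

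The clock transcripts of CCR6+ ILC3s were unequal in level, with Nr1d2 far above the rest. Levels between genes were compared as CPM per kb of exon, using the union of GENCODE M21 exons. Nr1d2 had a median of 69.3 CPM per kb over the 8 libraries and was above the next gene, Arntl, in 8 of 8. Arntl and Per1 followed with medians of 13.9 and 13.4, then Cry1 with 10.6, Nr1d1 with 5.26, Npas2 with 3.43 and Clock with 2.55 CPM per kb. Cry2, Per2 and Per3 were lowest, with medians of 0.799, 0.678 and 0.00336 CPM per kb.

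The order of close neighbours was not the same in every library. Arntl was above Per1 and Per1 above Cry1 in 7 of 8 libraries each, Clock above Cry2 in 6, and Cry1 above Nr1d1, Nr1d1 above Npas2 and Per2 above Per3 in 5 each. Npas2 was above Clock, and Cry2 above Per2, in 4 of 8. The ranges of all these neighbours overlapped, those of Nr1d2 and Arntl included, because Arntl reached 37.9 CPM per kb in deficient replicate 6 and Nr1d2 went down to 33.2 in deficient replicate 5.

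**Figure D1:**
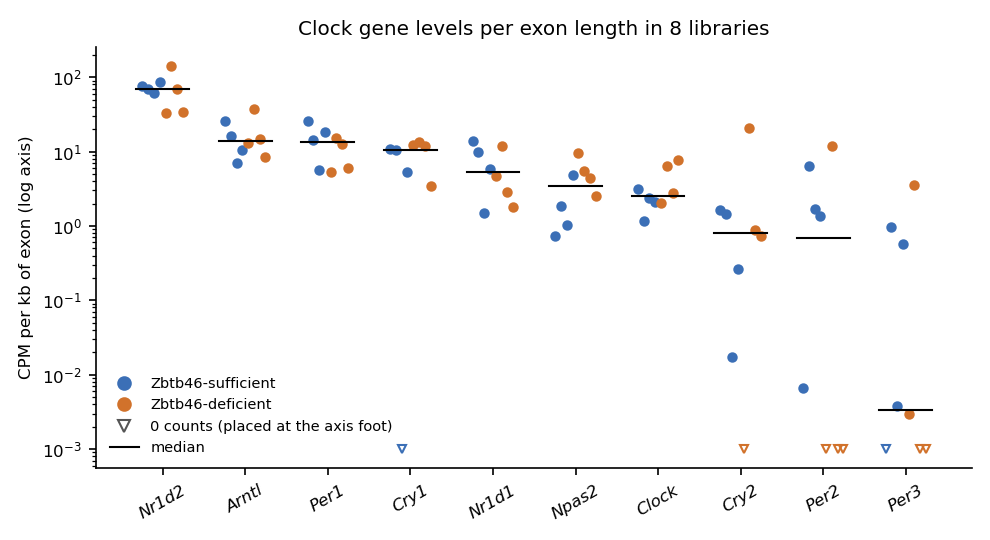
Level of each clock gene in CPM per kb of exon (log axis), with 1 point per library, blue for Zbtb46-sufficient and orange for Zbtb46-deficient mice, and a bar at the median. Nr1d2 lies highest at a median of 69.3, and open triangles at the axis foot mark libraries with 0 counts of Cry1, Cry2, Per2 or Per3.

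The activators of the loop, Arntl, Clock and Npas2, were detected in every library. Arntl (chromosome 7, 113178471 to 113314126 in RefSeq GRCm38.p6) encodes the partner that both other activators need. It had 193, 120, 53.0 and 79.3 CPM in sufficient mice 1 to 4, and 97.1, 285, 112 and 64.0 CPM in deficient mice 5 to 8. The groups overlapped, with the highest value in replicate 6 and the lowest in replicate 3. Its log2 fold, deficient over sufficient, was 0.33 (SE 0.544), and -0.29 without replicate 6.

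Clock (chromosome 5, 76209868 to 76305603) encodes the histone acetyltransferase that pairs with ARNTL in most tissues. It had 43.6, 16.1, 32.4 and 29.0 CPM in sufficient and 27.9, 87.6, 37.6 and 106 CPM in deficient libraries. Replicates 6 and 8 lay above all other libraries, while replicates 5 and 7 lay within the sufficient range. The log2 fold was 1.10 (SE 0.651).

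Npas2 (chromosome 1, 39193702 to 39363240) encodes a paralogue of CLOCK that can take its place. It had 3.52, 8.85, 4.97 and 23.5 CPM in sufficient and 46.3, 26.2, 20.9 and 12.0 CPM in deficient libraries. All 4 deficient libraries lay above sufficient replicates 1, 2 and 3, and sufficient replicate 4 lay among the deficient ones. The log2 fold was 1.37 (SE 1.08), and the exact two-sided permutation p of log2 CPM was 0.0857, the smallest among the members, where 4 against 4 libraries can give 0.0286. Replicate 5, highest in Npas2, was also highest in summed NK cell and ILC1 markers at 598 CPM, whose part in the value was not tested. Of that sum Ncr1 alone made 447 CPM. Gzma was at 59.4, Klrb1c at 46.2, Gzmb at 34.02 and Tbx21 at 11.3 CPM in replicate 5. Eomes was at 0.0571 CPM and Prf1 at 0 there. Because Ncr1 made most of it, the sum does not by itself measure the share of NK cells or ILC1s.

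Among the Period genes, Per1 was present in all libraries while Per2 and Per3 were nearly all or nothing. Per1 (chromosome 11, 69095108 to 69109965), which is also induced directly by glucocorticoid and cyclic AMP signals, had 143, 79.8, 31.4 and 103 CPM in sufficient and 29.7, 84.8, 71.6 and 33.5 CPM in deficient libraries. Replicates 3, 5 and 8 were low and the groups overlapped, with a log2 fold of -0.70 (SE 0.577).

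Per2 (chromosome 1, 91415977 to 91459351), the Period gene most tied to rhythm in mice, had 0.0391, 37.6, 9.80 and 7.90 CPM in sufficient libraries and 0, 69.5, 0 and 0 CPM in deficient ones. In counts these were 1, 908, 272 and 201 against 0, 1831, 0 and 0. It was thus above 3 counts in 3 of 4 sufficient libraries and in 1 of 4 deficient ones. Because that deficient library held the highest value of all, the fitted log2 fold was 0.33 (SE 2.63). Without it the remaining deficient libraries held 0 counts together, at least 443-fold lower than the pooled sufficient libraries when set at 3 counts over the group, and edgeR's adjusted p was then 0.507. Replicate 2, with 1353 CPM of epithelial markers, supplied 908 of the 1382 pooled sufficient counts, and without it the bound was at least 199-fold. Both bounds pool reads over mice and cover counting error only, not the spread between mice. They leave out the deficient library with the highest value, which sets their direction, so they measure no difference between the groups. With all 4 deficient libraries the mean of Per2 was 17.4 CPM, against 13.8 CPM in the sufficient ones. Sufficient replicate 1 itself held 1 count.

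Per3 (chromosome 4, 150997018 to 151044707) had 0, 9.35, 0.0360 and 5.46 CPM in sufficient and 0.0285, 33.7, 0 and 0 CPM in deficient libraries. It exceeded 3 counts in replicates 2, 4 and 6, each of which also had Per2. Per2 was above 3 counts in 1 further library, replicate 3. Among the 1559 tested genes with a mean of 10 to 20 CPM, the range in which Per2 lies, 5.77% had at least 4 libraries at 3 counts or fewer, as Per2 did. Replicate 2 was the library with 1353 CPM of epithelial markers and replicate 6 the one with 66.2 CPM of mast cell markers, whose part in the Per2 and Per3 values was not tested.

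**Figure D2:**
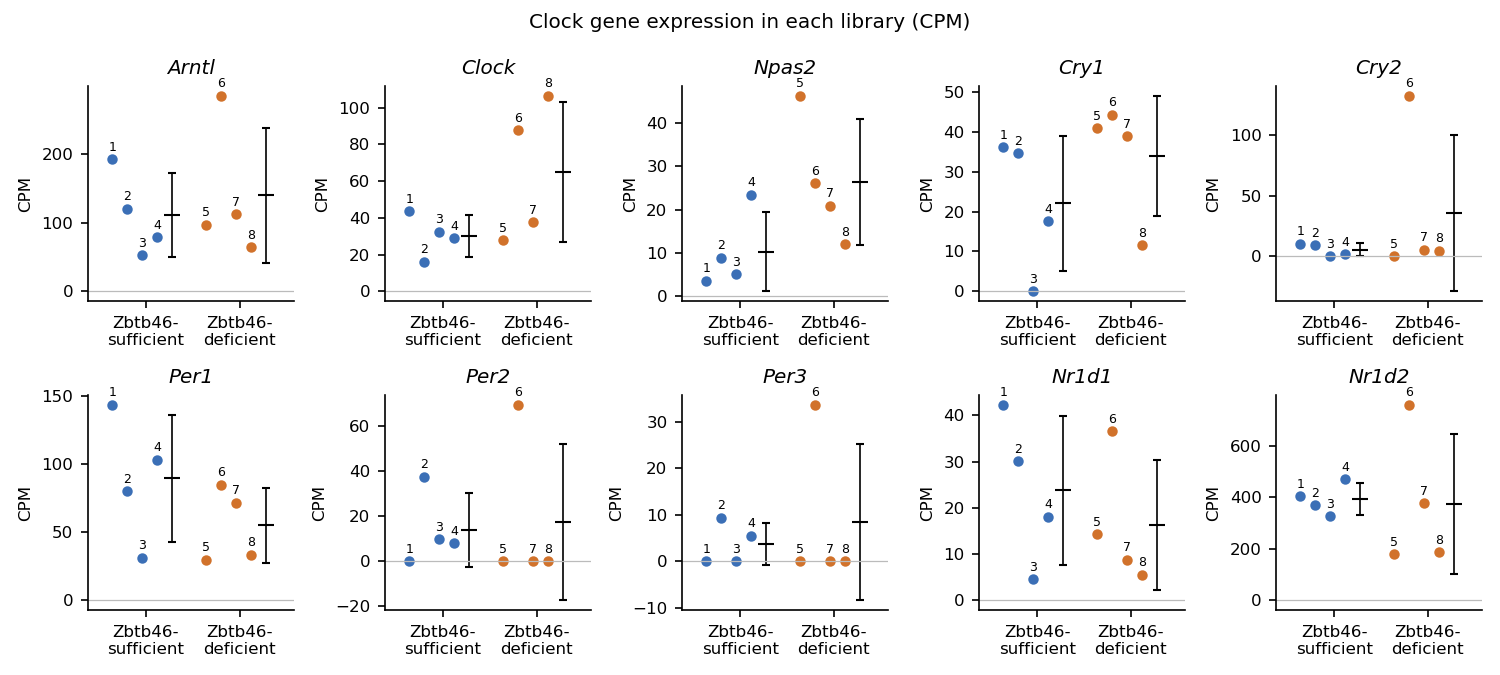
CPM of the 10 clock genes in each library (linear axes, 1 panel per gene, replicate numbers above the points), with the mean and SD of each group of 4 libraries beside the points. The groups overlap in every panel, and deficient replicate 6 is the highest library in Arntl, Cry1, Cry2, Per2, Per3 and Nr1d2.

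The cryptochromes, the stronger repressors of the loop, also dropped out of single libraries. Cry1 (chromosome 10, 85131700 to 85185054) had 36.2, 34.6, 0 and 17.7 CPM in sufficient and 41.0, 44.4, 39.0 and 11.6 CPM in deficient libraries. Replicate 3 held no read of Cry1 and replicate 8 was the lowest of its group, and the log2 fold was 0.62 (SE 1.44).

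Cry2 (chromosome 2, 92403646 to 92434085) had 10.4, 9.27, 0.108 and 1.65 CPM in sufficient and 0, 132, 5.51 and 4.60 CPM in deficient libraries. Its log2 fold of 2.73 (SE 2.10) was the largest among the members and rested on replicate 6. Without that library the log2 fold was -0.67 in edgeR's fit, and DESeq2 gave no p for Cry2 with all 8 libraries. An opposite-strand transcript, D930015M05Rik, shares 4.67% of the exon bases of Cry2 and had 0 to 13.3 CPM, and the sources used here do not state whether reads were counted by strand.

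The REV-ERB genes differed from each other in steadiness as well as in level. Nr1d1 (chromosome 11, 98767932 to 98775377) had 42.3, 30.1, 4.54 and 18.1 CPM in sufficient and 14.2, 36.5, 8.76 and 5.51 CPM in deficient libraries. Replicate 3 was lowest, the groups overlapped, and the log2 fold was -0.55 (SE 1.09). The exons of Nr1d1 overlap those of the thyroid hormone receptor gene Thra on the opposite strand over 263 bases, 8.55% of the Nr1d1 exons, but Thra did not exceed 5.50 CPM in any library.

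Nr1d2 (chromosome 14, 18204056 to 18239106) had 406, 371, 327 and 472 CPM in sufficient and 180, 761, 378 and 186 CPM in deficient libraries. The 4 sufficient libraries lay close together, with a coefficient of variation of 15.4%, while the deficient ones lay on both sides of them, with 72.4%. Its log2 fold was -0.07 (SE 0.435), turning to 0.0099 without TMM factors, and the difference in spread was not tested. From the lowest to the highest library Nr1d2 spanned 4.24-fold, Per1 4.83-fold, Arntl 5.38-fold, Clock 6.63-fold, Nr1d1 9.32-fold and Npas2 13.2-fold. The median span was 5.54-fold, with quartiles at 3.05-fold and 15.7-fold, over the 4991 tested genes above 3 counts in all libraries that averaged 10 CPM or more.

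The comparison of the design asks which transcripts differ when Zbtb46 is deleted in ILC3s, and no clock gene passed it. With edgeR's quasi-likelihood test over all 8878 tested genes, 0 of the 9 tested members had an adjusted p under 0.05, against 0% of all tested genes, and each adjusted p was 1.00. At an unadjusted p under 0.05 the count was 0 of 9 against 4.1% of all tested genes, and the smallest member value was 0.122 for Clock. Fitted values were higher in deficient ILC3s for 6 members and lower for 3, with a median log2 fold of 0.33 against 0.02 over all tested genes, and without TMM factors Nr1d2 was on the higher side. DESeq2, which gave a p for Per3 but not for Cry2, called 0 of 9 members and 3.26% of its 11478 genes, and its smallest member adjusted p was 0.570, for Npas2. The groups did not overlap in 0 of 9 members, against 4.36% of tested genes. The standard errors of 0.435 to 2.63 on the log2 scale limit how closely a difference could be measured, and missing the threshold does not show that the groups were alike.

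**Figure D3:**
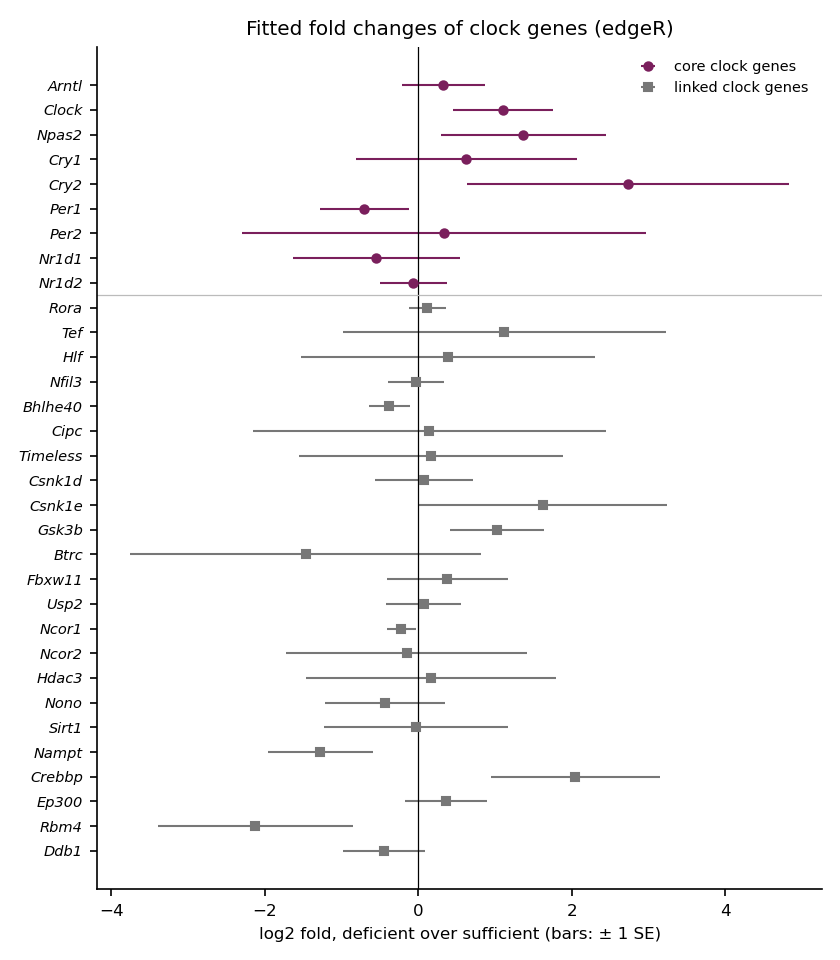
Fitted log2 fold of 9 core clock genes (circles) and of linked clock genes (squares), deficient over sufficient, with bars of 1 standard error. The folds of the core genes run from -0.70 for Per1 to 2.73 for Cry2, and the bars are longest for Per2, at 2.63.

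The pattern of clock phase in each library was described by splitting the members into arms. The ROR-element arm held Arntl, Clock, Npas2 and Cry1, the E-box arm held Per1, Per2, Per3, Nr1d1 and Nr1d2, and Cry2, which cycles weakly in many tissues, was in neither. The arms follow the general account of the clock and not the promoter search. That search found a ROR element core only in Arntl, and an E-box only in Per1 and in Cry1 of the ROR-element arm. Per2 had no promoter window. For each gene, log2 CPM was centred on its mean over the 8 libraries, and the median of the E-box arm was subtracted from that of the ROR-element arm. The difference was 0.26, -1.23, -0.25 and -0.78 in sufficient mice 1 to 4, and 1.77, -0.01, 1.11 and 1.24 in deficient mice 5 to 8. Replicates 5, 7 and 8 lay above all sufficient libraries, and replicate 6 lay among them. The group means were -0.50 ± 0.65 and 1.03 ± 0.75 (SD, n = 4), a difference of 1.52, and as a score over chosen members it was given no test.

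The higher values of replicates 5, 7 and 8 came mainly from the E-box side. Its median was -1.06, -0.78 and -1.44 in these libraries, while that of the ROR-element arm was 0.71, 0.34 and -0.21. In replicate 6 both arms were high together, at 1.26 and 1.27, and in replicate 3 both were low, at -1.23 and -0.99. Per2 and Per3, at or near 0 counts in replicates 5, 7 and 8, are members of the E-box arm. In replicate 7 Per1 and Nr1d2 lay above their means, at 0.20 and 0.11. Its low E-box median was the value of Nr1d1, with only Per2 and Per3 below it, at -4.20 and -2.92. In replicates 5 and 8 Per1, Nr1d1 and Nr1d2 were also below their means. Replicates 5 and 7 were those with 335 and 731 CPM of macrophage and neutrophil markers, which summed to 5.26 CPM in replicate 8, and their part in the contrast was not tested. Most of these sums in replicates 5 and 7 was S100a8, at 238 and 316 CPM, and S100a9, at 94.1 and 359 CPM. Lyz2 was at 0.114 and 35.4 CPM there. With Cry2 counted in the E-box arm the group difference was 1.07, and with Nfil3 added to the ROR-element arm and Dbp, Tef, Ciart and Bhlhe41 to the other it was 0.70.

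**Figure D4:**
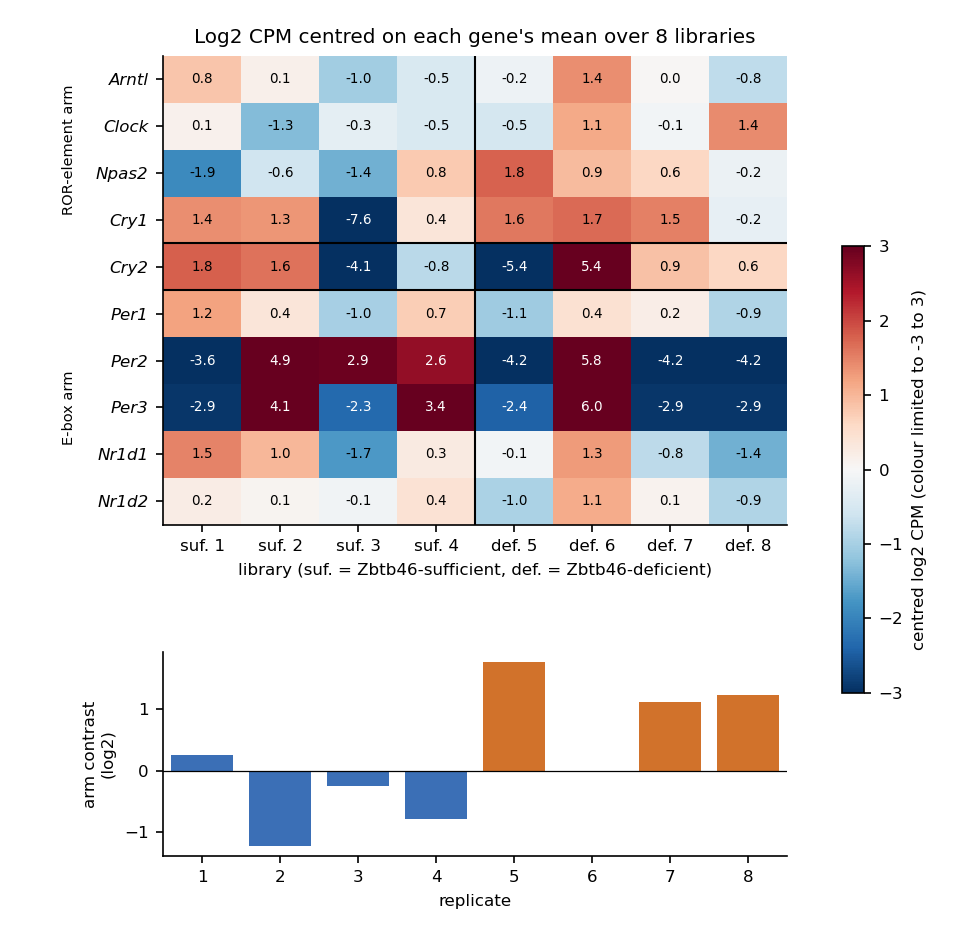
Top, log2 CPM of each clock gene centred on its mean over 8 libraries, with Arntl, Clock, Npas2 and Cry1 above the lines and the E-box arm below, and Cry2 between. Bottom, the arm contrast per library (log2), near 0 in deficient replicate 6 and above 1 in replicates 5, 7 and 8.

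Deficient replicate 6 stood out among the members, being the highest library in 6 of 10, where it was the highest for 19.0% of all tested genes. It was also the library with the fewest genes above 3 counts, 8329 against 8473 to 10176 in the others. Sufficient replicate 1 was the highest in Per1 and Nr1d1, and carried the 772 CPM of stromal markers. Whether these library features set the clock values was not tested.

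Across libraries, Arntl and its repressor gene Nr1d1 were high and low together. Of 6 listed gene pairs, 5 could be tested because Dbp did not pass the filter. Over the 8 libraries log2 CPM of Arntl and Nr1d1 gave a Pearson r of 0.852 and a Spearman rho of 0.881, with exact permutation p of 0.00694 and 0.00724 and adjusted p over the 5 pairs of 0.0347 and 0.0362. Of deviations from the group means, r was 0.927. Without replicates 3 and 6, the libraries farthest from the median of Arntl, r was 0.790 with an exact permutation p of 0.0569. Without replicates 1 and 6, which had the most genes at 3 counts or fewer, r was 0.765 with an exact permutation p of 0.0861. The sign held in each of these subsets but the call did not, and leaving out any library but replicate 4 also took the adjusted p past 0.05.

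The other pairs did not pass. Nr1d1 and Nr1d2 had r = 0.582 and rho = 0.643 (exact permutation p 0.131 and 0.0962, adjusted 0.327 and 0.240). Per1 and Per2 had r = 0.239 and rho = 0.390 (exact permutation p 0.578 and 0.337, adjusted 0.754 and 0.473). Arntl and Per2 had r = 0.208 and rho = 0.366 (exact permutation p 0.603 and 0.379, adjusted 0.754 and 0.473). Arntl and Npas2, which share the ROR-element arm, had r = 0.0894 and rho = 0.0952 (exact permutation p 0.831 and 0.840, adjusted to the same values). None of the 5 relations was negative over all 8 libraries. Without the 2 libraries farthest from the median of the first gene, r was 0.478, 0.267, -0.0237 and -0.608 for these 4 pairs in the order given.

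**Figure D5:**
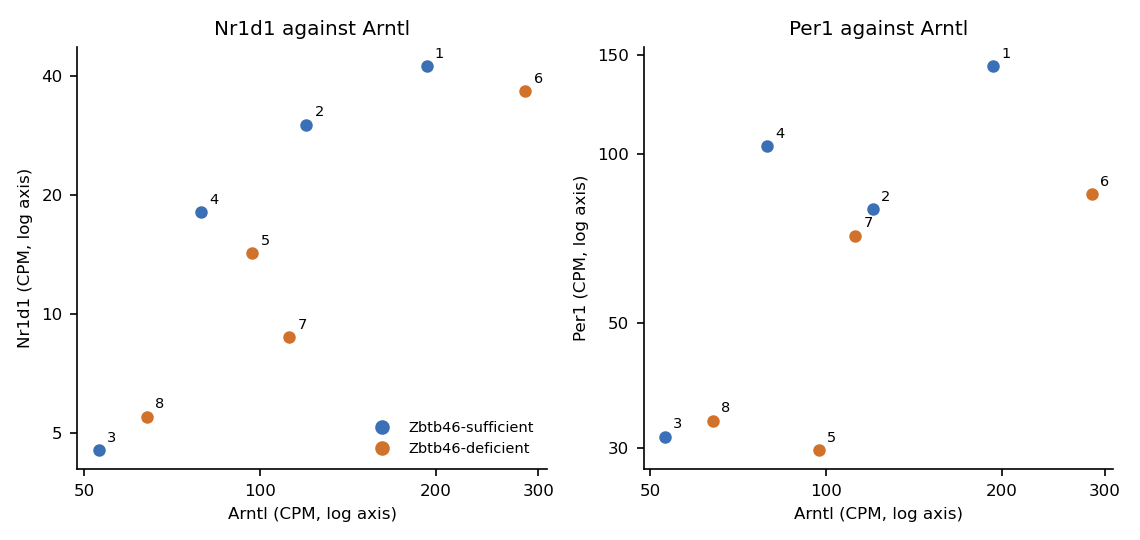
CPM of Nr1d1 (left) and Per1 (right) against CPM of Arntl in the 8 libraries (log axes, replicate numbers beside the points). Nr1d1 runs from 4.54 CPM in replicate 3, the lowest in Arntl, to 42.3 CPM in replicate 1, and Per1 from 29.7 CPM in replicate 5 to 143 CPM in replicate 1.

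The balance of Arntl against its repressors was given per library as a difference of log2 CPM. Against Per1 it was 0.43, 0.59, 0.76 and -0.38 in sufficient and 1.71, 1.75, 0.65 and 0.93 in deficient libraries. Replicates 5, 6 and 8 lay above all sufficient libraries and replicate 7 lay among them. Against Nr1d1 it was 2.19, 1.99, 3.52 and 2.13 in sufficient and 2.76, 2.96, 3.67 and 3.52 in deficient libraries, so that only sufficient replicate 3 reached the deficient range. Against Nr1d2 it was -1.07, -1.63, -2.63 and -2.57 in sufficient and -0.89, -1.42, -1.75 and -1.54 in deficient libraries. Sufficient replicates 1 and 2 lay within the deficient range there, and replicates 3 and 4 below it.

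Genes most alike to each member were sought among the 6518 tested and named genes that averaged 10 CPM or more, by Pearson r of log2 CPM over the 8 libraries. Among the closest were Mical1 and Gnb2 for Arntl (r = 0.963 and 0.950), Dcp1a for Clock (0.945), and Pigx and Dnajc5 for Npas2 (0.969 and 0.942). They were Gpr132 and Hip1 for Per1 (0.962 and 0.960), Zdbf2 and Uvssa for Per2 (0.987 and 0.980), Tent4a and App for Cry1 (0.989 and 0.983), and Retreg1 and Asphd2 for Cry2 (0.970 for each). For Nr1d1 they were Tmppe and Nrp (0.986 and 0.971), and for Nr1d2 Stat5b and Abhd17b (0.963 for each). No member had another member as its closest gene. The nearest other member came after 31 genes for Arntl, 35 for Nr1d1 and 1062 for Npas2. With 8 libraries shared by all genes, these values are a description.

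Genes linked to the core loop were read from 5 lists of 31 genes, of which 25 passed the filter. None of the 25 passed edgeR's test over all genes or an unadjusted p under 0.05, DESeq2 called 0 of the 26 it tested, and no linked gene had groups that did not overlap, against 4.36% of tested genes. Fitted values were higher in deficient ILC3s for 14 and lower for 11, with a median log2 fold of 0.07, and without TMM factors Nfil3 and Sirt1 turned sign.

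Of the ROR activators, Rora, which encodes a ROR receptor of several innate lymphoid lineages, had 419, 238, 270 and 281 CPM in sufficient and 303, 407, 293 and 307 CPM in deficient libraries, a log2 fold of 0.12 (SE 0.246). Sufficient replicate 1 and deficient replicate 6 were the highest, and the groups overlapped. Rorb had at most 0.414 CPM.

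The D-box factors, which in many tissues are strong outputs of the clock, were low apart from Nfil3. Of the 3 that passed the filter 2 were fitted higher and 1 lower, with a median log2 fold of 0.38. Dbp, an E-box target that cycles strongly in liver, had 1.45, 0, 0 and 3.69 CPM in sufficient and 0, 0, 0.0313 and 0 CPM in deficient libraries, and did not pass. Nfil3, the D-box repressor that innate lymphoid cells need for their development, had 84.1, 203, 217 and 136 against 176, 209.9, 108 and 132 CPM, a log2 fold of -0.03 (SE 0.369). Tef and Hlf, activators at the D-box, had means of 3.51 ± 6.86 against 7.64 ± 11.1 and 7.41 ± 10.6 against 9.67 ± 12.1 CPM (SD, n = 4), each with groups that overlapped.

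The other basic helix-loop-helix factors and auxiliary repressors had 3 of 6 genes past the filter. Of these 2 were fitted higher and 1 lower, with a median log2 fold of 0.14. Bhlhe40, an E-box repressor that also governs lymphocyte cytokines, was the most abundant gene of these lists by CPM, with 2904, 2109, 1702 and 2069 in sufficient and 1331, 2596, 1584 and 1242 in deficient libraries. Replicates 5, 7 and 8 lay below all sufficient libraries and replicate 6 lay within their range, with a log2 fold of -0.38 (SE 0.271). Its paralogue Bhlhe41 had 0 counts in every library. Timeless had 8.26 ± 11.7 against 9.26 ± 8.10 CPM. Ciart and Arntl2 stayed at or below 2.60 and 0.0414 CPM.

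The enzymes that mark clock proteins for turnover had 7 of 8 genes past the filter, 6 fitted higher and 1 lower, with a median log2 fold of 0.38. Gsk3b, a kinase of several clock proteins, had 22.5, 50.02, 34.4 and 30.7 CPM in sufficient and 53.3, 106, 97.4 and 23.6 CPM in deficient libraries. Replicates 5, 6 and 7 lay above all sufficient libraries, with a log2 fold of 1.02 (SE 0.617). Fbxl21 had 0 counts in all libraries.

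All 10 corepressors and cofactors passed the filter, 3 fitted higher and 7 lower, with a median log2 fold of -0.19. Nampt, the enzyme that supplies NAD+ to the deacetylase SIRT1, had 73.9, 41.4, 158 and 146 CPM in sufficient and 44.9, 8.16, 46.8 and 73.3 CPM in deficient libraries. Sufficient replicate 2 lay within the deficient range, and the log2 fold was -1.28 (SE 0.682). Crebbp, a histone acetyltransferase that works with the activators, had 1.76, 2.94, 25.9 and 32.5 against 14.4, 153, 56.6 and 36.8 CPM, a log2 fold of 2.05 (SE 1.11). Deficient replicates 6, 7 and 8 lay above all sufficient libraries in Crebbp, and replicate 5 lay within their range.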

How the data were processed

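RNA of sorted CCR6+ ILC3s from 8 mice was sequenced after low-input cDNA amplification, per the labels' protocols. The deposited table holds raw read counts per Entrez gene, with CASAVA 1.8.2, STAR 2.3.0 and build mm10 named in the submitters' processing notes. The sources used here do not state the counting tool, its annotation or its use of strand. Symbols came from RefSeq GRCm38.p6 (25275 of 27179 rows, the other 1904 holding 0.303% of counts), and exon lengths and overlaps from GENCODE M21, also on GRCm38. Groups came from the sample titles, and nothing pairs the mice. The single contrast was fitted with edgeR 4.0.16 (R 4.3.3) by the quasi-likelihood F test with TMM factors, filterByExpr and Benjamini-Hochberg adjustment over all 8878 tested genes. Standard errors were derived from F. Logs used a prior count of 2. Exact two-sided permutation tests were used for single values. Alternatives were DESeq2 1.42.0, limma 3.58.1 (voom), other scalings and filters, and libraries left out. On counts simulated for 8878 genes, of which 8418 passed the filter again, the edgeR step found 8.96% of the genes changed 2-fold, 55.2% of those changed 4-fold and 83.3% of those changed 8-fold, all of at least 100 CPM. Among the tested members only Arntl and Nr1d2 averaged that much, at 125 and 385 CPM. Recovery was not measured at the level of the other members. Members and lists were chosen with earlier results of these data known. All members and lists were to be named, with the 2 smallest p per linked list plus Dbp, Nfil3, Rora and Bhlhe40, and the 2 most alike genes per member. Genes that are 0 throughout or did not pass the filter, and the overlapping Thra and D930015M05Rik, were named after their values were seen. The alternatives for gene pairs and for the Per2 bound were added after the data were seen. A few genes that this rule names are not reported here.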

Additional observations from a re-analysis of the deposited data

Results flagged for a closer look

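A library far from the other 3 of its group was sought in 72 groups of 4 libraries (log2 CPM of the 10 core and 25 linked clock genes, and the arm contrast). In 8 groups 1 library stood apart. The cut-off flags about 1 in 20 groups, or 3.6, only where groups are independent and values normally distributed. Values at 0 and the 8 libraries shared by all genes do not meet this, so 8 is not read as an excess over 3.6. In the core genes these were deficient replicate 6 in Per2, at 69.5 CPM with the other 3 at 0, and in Per3, at 33.7 CPM against at most 0.0285. In Cry1 they were sufficient replicate 3, at 0 CPM against 17.7 to 36.2, and deficient replicate 8, at 11.6 CPM against 39.0 to 44.4. In linked genes, Rora was at 407 CPM in deficient replicate 6 against 293 to 307. Hdac3, the histone deacetylase recruited by REV-ERB proteins, was at 0.0391 CPM in sufficient replicate 1 against 27.8 to 36.4, and at 0.0856 CPM in deficient replicate 5 against 31.9 to 38.2. Sirt1 was at 0.124 CPM in sufficient replicate 2 against 80.8 to 102.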

How the results depend on the processing

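No clock member and no linked gene passed under any of 18 alternatives, and the lowest member adjusted p was 0.431, for Per2. Of 161 member results under alternatives, 148 kept their direction and 13 reversed; Clock, Npas2, Per1, Cry1 and Nr1d1 never reversed. Without deficient replicate 6 the log2 fold was -0.294 for Arntl, -0.669 for Cry2 and -11.6 for Per2. Without both sufficient 1 and deficient 6 it was -0.101 for Cry2 and -12.1 for Per2; these Per2 values, fitted against 0 counts, depend on the prior and are no bound. Limma-voom gave -7.12 for Per2 and -0.35 for Cry2, and leaving out sufficient replicate 1 gave -0.0805 for Per2. For Nr1d2 it was 0.00992 without scaling, 0.0309 without replicate 4, 0.16 without replicate 5, 0.158 without replicate 8 and 0.264 without both 5 and 7. Leaving out 1 library at a time gave -0.294 to 0.728 for Arntl, -11.6 to 1.56 for Per2, -0.669 to 3.28 for Cry2 and -0.675 to 0.16 for Nr1d2. Over all genes DESeq2 called 374 (240 higher, 134 lower), edgeR without a filter 2, and edgeR with 1 library left out 0 to 2, reaching 2 without replicate 6. The arm contrast difference was 1.2 to 1.85 with 1 library left out and 0.696 with linked genes added to the arms. The r of Arntl and Nr1d1 was 0.791 to 0.898 with 1 library left out (adjusted exact permutation p 0.0248 to 0.171, past 0.05 in 7 of 8), and 0.842 on unscaled CPM. That of Arntl and Per2 was -0.258 to 0.422, -0.258 without replicate 6, and that of Arntl and Npas2 -0.196 to 0.481, -0.196 without replicate 3 and -0.179 without replicate 6. The smaller number of libraries also limits these p-values. No paired analysis was possible because the replicate numbers run from 1 to 8 and none is shared between groups. Without molecular identifiers, reads are not independent molecules, so depth does not give the precision of low values.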
